A study of Mus musculus with 10 samples.

Results

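Integrins and laminins are the receptors and the ligands by which epithelial cells hold on to their basement membrane. All genes with an integrin α, integrin β or laminin chain symbol on the array were taken, 34 of 19505 genes measured, of which 24 encode integrin subunits and 10 encode laminin chains. Each was represented by 1 probe set. The collagen receptor genes Itga1 and Itga10 carried no value under these symbols and were not analysed here. The samples were BALB/c mouse small intestine organoids, cultures of self-organising gut epithelium grown in domes of Matrigel. For 48 h every culture was kept with recombinant mouse TNF at 20 ng/ml, to which 5 samples had pegtarazimod added at 5 mg/ml and the other 5 its vehicle, PEG, at 2.625 mM. No other genotype, allele or agent is named in the labels, and no samples without TNF were analysed here. The series describes 5 biological replicates per group without saying whether they came from separate animals or cultures, so p-values measure the spread between these samples.

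An integrin is a heterodimer of 1 α and 1 β chain that spans the plasma membrane and links matrix outside the cell to actin or keratin inside it. A laminin is a heterotrimer of an α, a β and a γ chain, and laminins form the sheet on which gut epithelium sits. In the intestine, receptors of the α6β4 and α3β1 type bind laminin at the base of the cell, α2β1 binds collagen, and αvβ6 binds latent TGF-β. Matrigel is itself a laminin-rich matrix, which supplies these receptors with ligand protein that the arrays do not measure. The comparison addressed which of these transcripts pegtarazimod altered in TNF-treated epithelium.

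Values are RMA expression on a log2 scale, and the number of arrays limited the precision. After the group means were removed, the leading principal component held 33.4% of the variance and placed replicates 1 and 2 of both groups between -27.6 and -12.0 and replicates 3 to 5 between 8.20 and 21.2. The labels name no batch for this split, so differences within each subset are given for the genes described at length. All 10 epithelial markers, among them Epcam, Cdh1 and Vil1, had mean levels of 7.87 to 12.19, with Krt19 passing the test between the groups (0.33 higher with pegtarazimod, limma adjusted p = 0.0350). Of 36 measured markers of fibroblasts, smooth muscle, endothelium, leukocytes, platelets, neurons and glia, none passed, where 4.89% of all genes did. In bulk RNA, fewer cells of a type and less RNA per cell cannot be told apart.

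The array values carry no detection calls, so 1410 olfactory and vomeronasal receptor genes, which serve smell and are not known as genes of gut epithelium, stood in for silent genes. Their mean levels had a median of 2.95, and 95% of them lay at or below 4.32, which was taken as the background limit. By this limit 11 of the 34 genes lay near background, against 6238 of all 19505 genes. The limit also let through 12 of the 36 markers of other cell types, so a value above it does not by itself show expression. Probe sets differ in brightness for the same amount of RNA, and the level of one gene is not set against that of another here.

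Near background lay 9 integrin genes and 2 laminin genes. They were Itgad, Itgal, Itgam, Itgax and Itgb2, which encode chains of the leukocyte integrins, Itgae, which encodes the αE chain of intraepithelial lymphocytes, and Itga9. The others were the collagen receptor gene Itga11, the fibronectin receptor gene Itga5, the laminin gene Lama2, best known from muscle, and Lamb1, which encodes a widespread β chain. Their mean levels ran from 2.49 for Lamb1 to 4.25 for Itgal. The genes nearest to the limit were Itgal just below it and Lama3 (4.42) and Itgb3 (4.46) just above it. Counted by the lower quartile of all genes (3.87) 7 members lay near background, by the 99th percentile of the receptor genes (5.05) 17, and by the median of all genes (5.63) 21. The call thus depended on the limit for 14 members, among them Itga5, Itgb3, Itga7, Itga8, Itgb8 and every laminin α gene except Lama2. The 13 members above all 5 limits tried were Itga2, Itga2b, Itga3, Itga6, Itgav, Itgb1, Itgb4, Itgb5, Itgb6, Itgb7, Lamb2, Lamb3 and Lamc1.

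**Figure D1:**
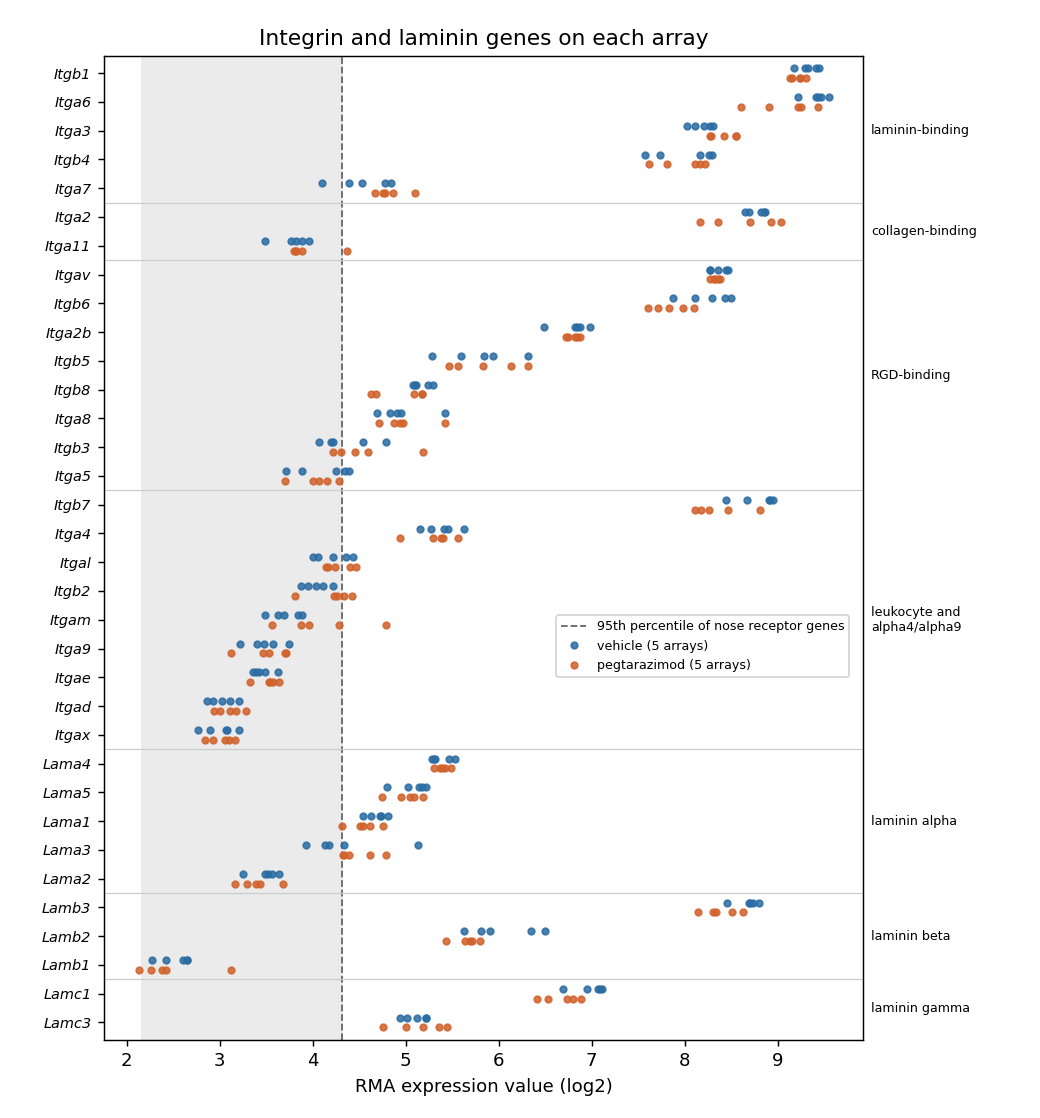
RMA expression values (log2, horizontal axis) of the 34 integrin and laminin genes on each of 5 vehicle and 5 pegtarazimod arrays, grouped by what the chains bind or form. The dashed line marks the background limit of 4.32 and the grey area the receptor genes below it. The groups overlap in every row.

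None of the 34 genes passed the limma test over all genes (Benjamini-Hochberg adjusted p = 0.106 to 0.993), where 4.89% of all genes did. This fit held no block. With a block for the replicate number or for the 2 subsets, Itgb6 passed (limma adjusted p = 0.0340 and 0.0128), where 1606 and 1820 of all genes did. Without a block, 9 members (26.5%) had an unadjusted p below 0.05, against 19% of all genes. Of these 6 were lower with pegtarazimod and 3 higher, beside 9.65% and 9.31% of all genes. The highest and lowest values of the 2 groups overlapped for every member, whereas they did not for 6.71% of all genes. Differences, always pegtarazimod minus vehicle, ran from -0.41 (Itgb7) to 0.39 (Itgam) on the log2 scale. Their median was -0.01, beside 0.003 over all genes, with 17 of 34 members below 0, beside 49.3% of all genes. Over the 24 integrins the median was 0.02 and over the 10 laminins -0.08, with 7 laminin genes below 0.

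The intervals bound what could have gone unseen. The 95% intervals of all 34 differences, not adjusted for their number, lay between -0.71 and 0.78, so a 2-fold change (1 on the log2 scale) lay outside each of them. For genes near background a fold may be understated, and the bound then holds only for the measured values. The narrowest interval was that of Itgav (-0.20 to 0.14). In the table as a whole, calls were made for differences as small as 0.30 in size and for unadjusted p up to 0.00244. Differences of 0.5 could be missed: on simulated arrays the test recovered 31 of 67 genes changed by 0.5 and all 67 changed by 1. Fewer genes were changed there, with 175 calls against 954 in the data, so the adjusted threshold was stricter than here. The simulation also held no replicate subsets, and its recovery rates do not give the power of the test on these data.

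**Figure D2:**
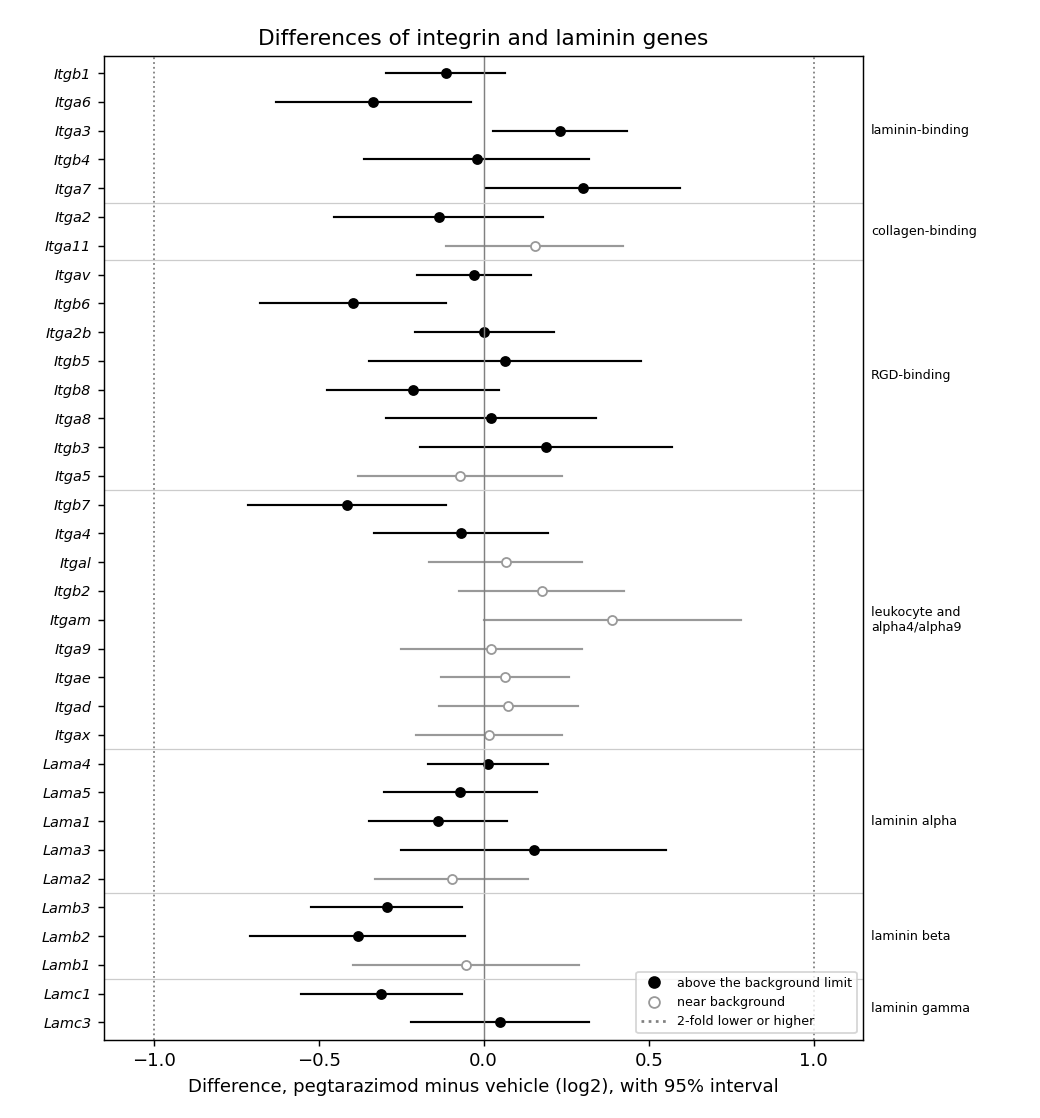
Difference between pegtarazimod and vehicle (log2, horizontal axis) for each integrin and laminin gene, with its 95% interval from limma. Open symbols mark the 11 genes near background and dotted lines a 2-fold change. No interval reaches a dotted line, and the lowest and highest bounds are -0.71 and 0.78.

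Among the receptors for laminin, the differences of Itga6 and Itga3 had opposite signs, and neither passed. Those of their β partners Itgb1 and Itgb4 were smaller in size, and whether α and β chains differed was not tested. Itga6, whose product pairs with β4 in hemidesmosomes and with β1, read 9.22, 9.41, 9.43, 9.47 and 9.55 in vehicle replicates 1 to 5. With pegtarazimod it read 8.61, 8.90, 9.22, 9.43 and 9.25. Replicates 1 and 2 were the lowest pair in the pegtarazimod group, and the other 3 lay among the vehicle values. The mean difference was -0.33 ± 0.14 (SE; 9.41 ± 0.12 against 9.08 ± 0.33, SD, n = 5 per group; limma adjusted p = 0.205). Within replicates 1 and 2 it was -0.56 (adjusted p = 0.0386) and within replicates 3 to 5 -0.18 (adjusted p = 0.518), and the difference between these subsets did not pass (adjusted p = 0.691).

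Itga3, which encodes the α3 chain of a laminin receptor, read 8.02, 8.27, 8.11, 8.31 and 8.21 with vehicle and 8.55, 8.55, 8.42, 8.29 and 8.27 with pegtarazimod. All 5 pegtarazimod values lay above the vehicle mean of 8.18, although the upper vehicle and lower pegtarazimod values overlapped. The difference was 0.23 ± 0.09 (SE; limma adjusted p = 0.198), with 0.40 in replicates 1 and 2 and 0.12 in replicates 3 to 5. Itga7, a laminin receptor chain best known from muscle, lay close to background at 4.53 ± 0.30 and 4.83 ± 0.16 (SD, n = 5 per group; difference 0.30, limma adjusted p = 0.249). Its difference was -0.05 in replicates 1 and 2 and 0.53 in replicates 3 to 5, and the difference between the subsets did not pass (adjusted p = 0.528).

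Itgb1 encodes the β chain shared by most matrix-binding integrins. It ranged from 9.18 to 9.44 (median 9.32) with vehicle and from 9.13 to 9.30 (median 9.23) with pegtarazimod, a difference of -0.12 with a 95% interval of -0.30 to 0.07. Itgb4, the β chain particular to hemidesmosomes, read 7.74, 7.58, 8.29, 8.17 and 8.26 with vehicle and 7.81, 7.61, 8.17, 8.22 and 8.11 with pegtarazimod. Its difference was -0.02 (95% interval -0.36 to 0.32). The spread of Itgb4 followed the replicate number and not the treatment, with replicates 1 and 2 at 7.58 to 7.81 and replicates 3 to 5 at 8.11 to 8.29 over both groups.

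Itga2, which encodes the collagen-binding α2 chain of epithelium, also differed between the subsets. It read 8.65, 8.82, 8.85, 8.86 and 8.70 with vehicle and 8.17, 8.36, 8.93, 9.04 and 8.70 with pegtarazimod, so that pegtarazimod 1 and 2 were the lowest of all 10 arrays and pegtarazimod 3 and 4 the highest. The overall difference was -0.14 (limma adjusted p = 0.701), made of -0.47 in replicates 1 and 2 and 0.09 in replicates 3 to 5. Of the members it had the smallest p for a difference between subsets (unadjusted p = 0.0126), which did not pass over all genes (adjusted p = 0.475).

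The receptors that recognise the RGD motif of fibronectin, vitronectin and latent TGF-β hold the member with the smallest p. Itgb6 encodes an epithelial β chain that pairs only with αv and releases active TGF-β from its latent form. It read 7.87, 8.11, 8.44, 8.29 and 8.49 with vehicle and 7.71, 7.60, 7.98, 8.09 and 7.83 with pegtarazimod. All 5 pegtarazimod values lay below the vehicle mean of 8.24, and 3 of them below the lowest vehicle value. The difference was -0.40 ± 0.13 (SE; 1.32-fold lower; limma adjusted p = 0.106). It was of like size in both subsets, -0.33 in replicates 1 and 2 and -0.44 in replicates 3 to 5, and with the 2 subsets as a block the adjusted p was 0.0128. It was also 0.0407 without vehicle 1. In every other fit that left out 1 array Itgb6 did not pass.

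Its partner Itgav, the α chain common to the receptors of this kind, had vehicle values of 8.27 to 8.47 (median 8.35) and pegtarazimod values of 8.28 to 8.38 (median 8.33). The difference was -0.03 (95% interval -0.20 to 0.14). Itgb8, the other β chain known for activating TGF-β, differed by -0.21 (limma adjusted p = 0.382), with pegtarazimod 1 and 5 at 4.68 and 4.63 and the remaining arrays between 5.07 and 5.30. Itgb5, a vitronectin receptor chain, differed by 0.06 and showed the reverse of the Itgb4 pattern, at 5.94 to 6.32 in replicates 1 and 2 and 5.28 to 5.84 in replicates 3 to 5 over both groups.

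Itga2b, the α chain of the platelet fibrinogen receptor, had a mean level of 6.80 and a difference of 0.002 (95% interval -0.21 to 0.21). The platelet genes Pf4 (6.58) and Gp9 (6.11) also read above the limit, and Ppbp (3.41) below it; the part of platelet RNA or of probe brightness in these levels was not tested. Itgb3, the platelet β partner, read 4.36 ± 0.29 with vehicle and 4.55 ± 0.38 with pegtarazimod (SD, n = 5 per group). Itga8, a chain best known from mesenchyme, had a mean level of 4.97 and differed by 0.02.

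Of the 9 genes for leukocyte integrins and the related α4 and α9 chains, only Itgb7 and Itga4 lay above the limit. Itgb7 encodes the β chain that pairs with α4 on gut-homing lymphocytes and with αE on intraepithelial lymphocytes. It read 8.67, 8.95, 8.91, 8.92 and 8.45 with vehicle and 8.80, 8.47, 8.17, 8.11 and 8.26 with pegtarazimod. Pegtarazimod 3 to 5 lay below every vehicle array, and pegtarazimod 1 and 2 lay among them. The difference was -0.41 ± 0.14 (SE; 1.33-fold lower; limma adjusted p = 0.114), with -0.17 in replicates 1 and 2 and -0.58 in replicates 3 to 5 (adjusted p = 0.0547). The adjusted p was 0.0382 without pegtarazimod 1 and 0.0475 with array weights. In the other 19 of 21 alternative fits Itgb7 did not pass. Its limma adjusted p was 0.0509 with the subset block and reached 0.242 among the fits without 1 array.

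Of the α partners of Itgb7, Itgae lay near background at 3.49 and Itga4 above it at 5.35, with differences of 0.07 and -0.07. Of 9 measured leukocyte markers 7 lay near background, among them the pan-leukocyte gene Ptprc (4.08) and the T cell genes Cd3e (4.12) and Cd3g (3.39). The T cell gene Cd8a (4.59) and the myeloid and Paneth cell gene Lyz2 (7.62) lay above the limit, with differences of 0.18 and -0.47 that did not pass (limma adjusted p = 0.563 and 0.248). The mean level of the list lay between 4.27 and 4.45 on vehicle arrays and between 4.32 and 4.44 on pegtarazimod arrays. The part of such cells in the Itgb7 values was not tested. Itgam, a chain of the myeloid complement receptor, had the largest positive difference of all members (0.39, limma adjusted p = 0.263), at a level near background. Pegtarazimod 5 read 4.79 and pegtarazimod 2 4.28, and the other 8 arrays lay between 3.49 and 3.97.

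Among the 10 laminin genes, Lamb2, Lamb3 and Lamc1 had an unadjusted p below 0.05, where 19% of all genes did, and none of the 10 passed. Whether the β and γ chains differed from the α chains was not tested. Lamb3 encodes the β chain of the anchoring laminin under hemidesmosomes. It read 8.45, 8.80, 8.73, 8.70 and 8.69 with vehicle and 8.30, 8.63, 8.51, 8.34 and 8.14 with pegtarazimod. Vehicle 1 was the only vehicle value among those of pegtarazimod, and the difference was -0.29 ± 0.11 (SE; 1.22-fold lower; limma adjusted p = 0.143), with -0.16 in replicates 1 and 2 and -0.38 in replicates 3 to 5. Lama3, the α chain of that same laminin, lay just above the limit at 4.34 ± 0.47 and 4.49 ± 0.20 (SD, n = 5 per group), and its difference of 0.15 had an interval of -0.25 to 0.55.

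Lamc1, the γ chain found in most laminins, read 6.70, 6.95, 7.11, 7.07 and 7.09 with vehicle and 6.53, 6.74, 6.80, 6.89 and 6.42 with pegtarazimod. All 5 pegtarazimod values lay below the vehicle mean of 6.98, and the difference was -0.31 ± 0.11 (SE; limma adjusted p = 0.150), -0.19 and -0.39 in the 2 subsets. Lamb2, a β chain of several basement membranes, read 5.81, 5.62, 6.50, 5.90 and 6.35 with vehicle and 5.69, 5.63, 5.72, 5.80 and 5.44 with pegtarazimod. Vehicle 3 and 5 stood above all other arrays, and the difference of -0.38 (limma adjusted p = 0.186) was -0.05 in replicates 1 and 2 and -0.60 in replicates 3 to 5.

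Lama5 encodes the main α chain of adult gut basement membrane and Lama1 that of the embryo and of Matrigel. Their differences were -0.07 (95% interval -0.30 to 0.16) and -0.14 (-0.35 to 0.07), at mean levels of 5.04 and 4.62. Lama4, an α chain of vessels, and Lamc3 differed by 0.01 and 0.05. The values of Lamb1, 2.13 to 3.12, cannot be told from background.

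**Figure D3:**
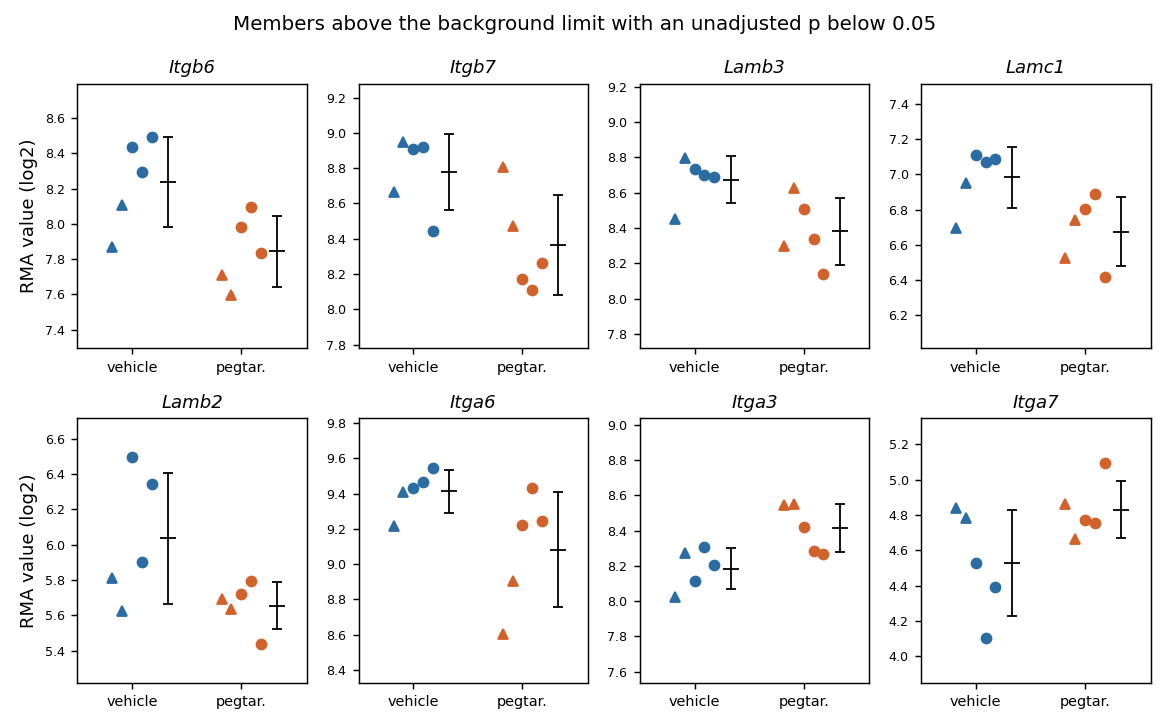
RMA expression values (log2, vertical axes, each spanning 1.5) of the 8 members above the background limit whose unadjusted p was below 0.05. Triangles are replicates 1 and 2, circles replicates 3 to 5, and the bars show the mean and SD of 5 arrays. In every panel the groups overlap, and none of these genes passed the test over all genes.

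The treatment difference was compared within replicates 1 and 2 and within replicates 3 to 5. The sign was the same in both subsets for 20 of the 34 genes, beside 62.2% of all genes, and Itga6 in replicates 1 and 2 was the only one to pass within either. Itgb6, Lamb3, Lamc1, Itgb8 and Itgb1 were lower and Itga3 was higher in both subsets. The other 14, with Itga2, Itga7, Itga2b, Itgb4 and Lamc3 among them, had opposite signs. Apart from treatment, 4 members (11.8%) had replicates 1 and 2 apart from replicates 3 to 5 in both groups, against 9.5% of all genes. These were Itga6, Itgb4 and Itgb6, higher in replicates 3 to 5, and Itgb5, lower there.

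**Figure D4:**
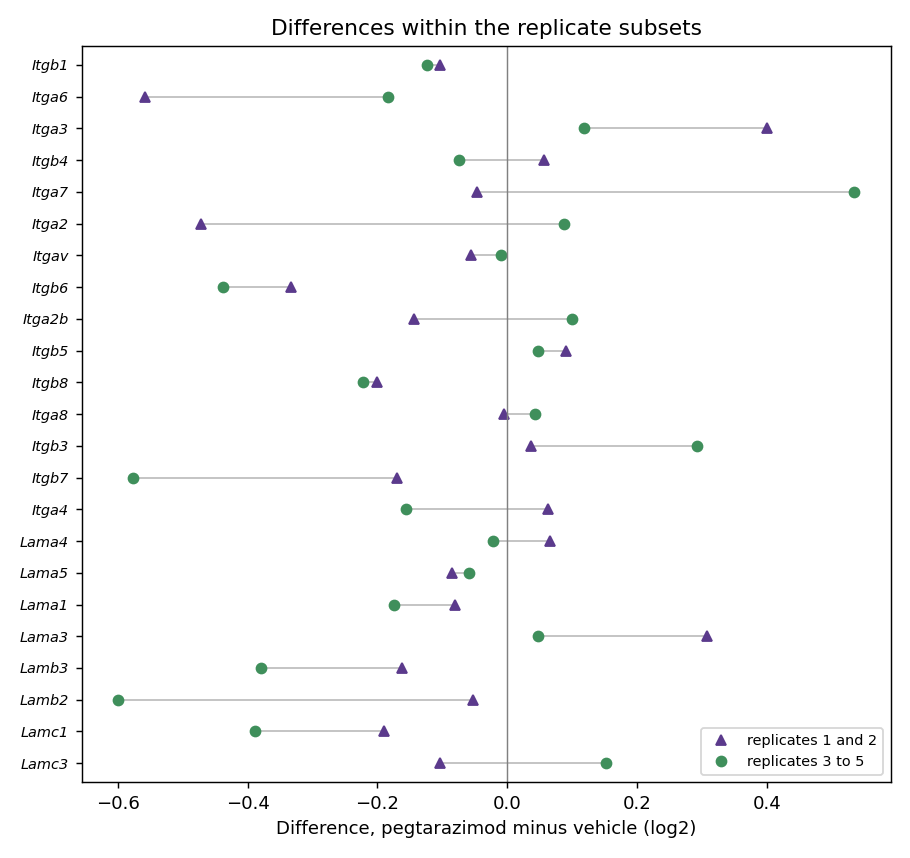
Difference between pegtarazimod and vehicle (log2, horizontal axis) within replicates 1 and 2 (triangles) and within replicates 3 to 5 (circles) for the 23 members above the background limit. Itgb6 has -0.33 and -0.44, and Itga2 has -0.47 and 0.09.

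The genes that work with integrins and laminins were read from 5 lists with 85 measured genes in all. Over all arrays 10 of these (11.8%) passed as lower with pegtarazimod and none as higher. Of all genes, 2.39% passed as lower and 2.5% as higher. The lists were chosen with earlier results of these data known, so this excess is not independent support. The shares are also not matched for level, with 14 of the 85 near background, beside 6238 of all 19505 genes. In 14 of the 85 the groups did not overlap, all lower with pegtarazimod, beside 3.36% of all genes in that direction. The median difference over the 85 was -0.04. Beside these lists, no marker of another cell type passed, and 24 of those 36 markers lay near background. The part of other cell types in these results was not tested. The mean level of the 10 epithelial markers lay between 9.90 and 9.99 on vehicle arrays and between 10.03 and 10.14 on pegtarazimod arrays, without overlap. Single markers differed in both directions, from -0.47 for Krt18 to 0.72 for Krt20, with Cdh1 at -0.04 and Krt8 at 0.04. The part of epithelial content in these results was not tested.

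Ligands of integrins other than laminin held 5 of the 10, from 18 measured. Thbs1, the matricellular thrombospondin gene, fell by 2.52 ± 0.48 (SE, log2; limma adjusted p = 0.00881). Its vehicle values ran from 6.99 to 9.28 and its pegtarazimod values from 4.73 to 6.73. Its difference was -2.17 in replicates 1 and 2 and -2.74 in replicates 3 to 5, and under robust priors and an intensity trend its adjusted p was 0.0515. Ccn1, a matricellular ligand of αv and α6 receptors, read 8.02, 7.98, 9.45, 9.10 and 9.36 with vehicle and 7.12, 6.49, 7.27, 7.09 and 6.95 with pegtarazimod (difference -1.80, limma adjusted p = 0.00272). Tgfb1, whose latent product is a ligand of αvβ6, read 5.99, 6.34, 6.49, 6.53 and 6.23 with vehicle and 5.49, 5.64, 5.72, 5.81 and 5.57 with pegtarazimod (difference -0.67, limma adjusted p = 0.00426). All 5 pegtarazimod values of Tgfb1 and of Ccn1 lay below all vehicle values. In the 2 subsets, in the same order, Ccn1 differed by -1.19 and -2.20 and Tgfb1 by -0.60 and -0.72; the difference between subsets did not pass for Ccn1 (adjusted p = 0.305). Icam1 and F11r, which encode cell surface ligands of integrins, fell by 0.54 and 0.44 (limma adjusted p = 0.0139 and 0.00994). Icam2 and Madcam1 differed by 0.19 and 0.23 and did not pass (limma adjusted p = 0.333 and 0.403). Within each subset Ccn1, Tgfb1 and Thbs1 passed. F11r passed within replicates 3 to 5 and not within replicates 1 and 2 (adjusted p = 0.248), and Icam1 passed in neither (adjusted p = 0.132 and 0.0565).

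Among 5 laminin receptors that are not integrins, Bcam passed. It encodes the Lutheran glycoprotein, a receptor for the laminin α5 chain. It read 8.22, 8.20, 8.32, 8.15 and 8.20 with vehicle and 7.56, 7.83, 7.58, 7.51 and 7.57 with pegtarazimod, with a gap between the groups. Bcam fell by 0.61 ± 0.09 (SE; limma adjusted p = 0.00176), with -0.51 in the first subset and -0.67 in the second, and passed in every fit tried. The syndecan gene Sdc4 and the ribosomal and laminin-binding protein gene Rpsa differed by -0.27 and 0.14 (limma adjusted p = 0.201 and 0.522).

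Of 31 genes of the adhesion machinery inside the cell 3 passed, all lower with pegtarazimod. Tns3, which encodes a tensin that binds β chain tails and actin, read 7.74, 7.62, 7.93, 8.02 and 8.28 with vehicle and 6.67, 7.11, 7.30, 7.09 and 6.77 with pegtarazimod (difference -0.93, limma adjusted p = 0.00273). It passed in every fit tried, with -0.79 in replicates 1 and 2 and -1.03 in replicates 3 to 5. Flna, an actin cross-linker that binds β tails, and Zyx, a protein of mature focal adhesions, fell by 1.55 and 0.49 (limma adjusted p = 0.0437 and 0.0355), and their groups overlapped. Within each subset both passed, Flna with -1.74 and -1.42 and Zyx with -0.53 and -0.47. Without vehicle 3, 4 or 5 or without pegtarazimod 1 or 2, Tns3 alone of this list passed. Flna was also lost without pegtarazimod 3 or 5 and under robust priors and an intensity trend (adjusted p = 0.141), and Zyx without pegtarazimod 5 (adjusted p = 0.0570). Fermt1, the kindlin of epithelium, differed by -0.55 and Parva by -0.41, with groups that did not overlap (limma adjusted p = 0.0533 and 0.0694). With the 2 subsets as a block Fermt1 and Parva passed as well (adjusted p = 0.00735 and 0.0196). The Fermt1 difference in replicates 1 and 2 was -0.94 (adjusted p = 8.85e-04) against -0.29 for replicates 3 to 5 (adjusted p = 0.183), and the difference between subsets did not pass (unadjusted p = 0.00158, adjusted p = 0.305). Parva, at -0.55 and -0.31, passed in neither subset.

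Of 20 other basement membrane genes, only Ntn4, a netrin that binds laminin γ chains, passed (-0.50, limma adjusted p = 0.0412). Its call was lost in 8 of the 10 fits without 1 array, reaching an adjusted p of 0.105 when vehicle 4 was omitted, and held without vehicle 2 or pegtarazimod 5. The heparan sulphate proteoglycan gene Agrn differed by -0.27 with groups that did not overlap (limma adjusted p = 0.0847). Npnt, which encodes the nephronectin ligand of α8β1, differed by -1.07 (limma adjusted p = 0.206), at 7.25 to 7.68 in vehicle 3 to 5 and 6.13 and 6.28 in vehicle 1 and 2. Npnt passed within replicates 1 and 2 (-1.52, adjusted p = 5.86e-04) and within replicates 3 to 5 (-0.76, adjusted p = 0.0162).

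None of 11 hemidesmosome and membrane partner genes passed, beside 4.89% of all genes. Of the 11, 5 had an unadjusted limma p below 0.05, beside 19% of all genes. The tetraspanin gene Cd81 and the integrin-associated gene Cd47 each differed by -0.29 (limma adjusted p = 0.0689 and 0.0735). In both cases the groups did not overlap, as in 6.71% of all genes. Under robust priors and an intensity trend both passed (adjusted p = 0.0210 and 0.0429). Cd44, the hyaluronan receptor gene, and the tetraspanin gene Cd9 are named after their values were seen. Cd44 had the largest difference of this list, -0.95 (limma adjusted p = 0.0979), made of -1.50 in replicates 1 and 2 (adjusted p = 9.44e-04) and -0.59 in replicates 3 to 5 (adjusted p = 0.0769). With the 2 subsets as a block Cd44, Cd81 and Cd9 passed (adjusted p = 0.00245, 0.0332 and 0.0164), and without pegtarazimod 4 Cd44 passed.

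**Figure D5:**
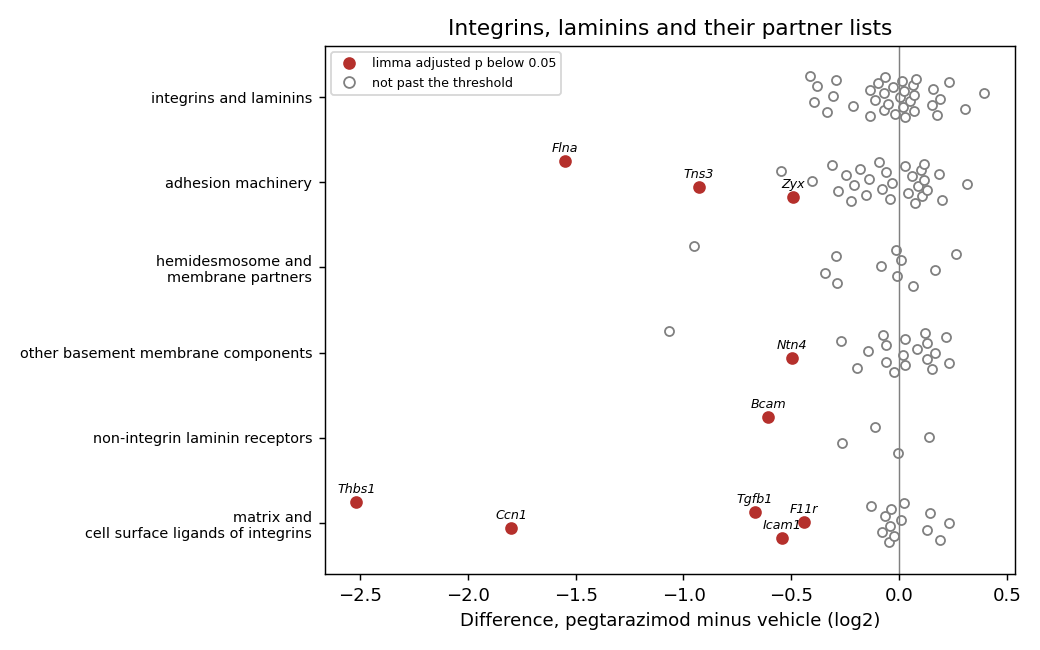
Difference between pegtarazimod and vehicle (log2, horizontal axis) of each measured gene in the integrin and laminin families and in the 5 partner lists; vertical scatter within a row only separates points. Filled points passed limma with Benjamini-Hochberg adjustment. The 10 filled points are all below 0, and none lies in the top row.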

How the data were processed

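RNA from 10 organoid samples was measured on single-colour arrays. Groups and replicate numbers come from the sample labels. The table deposited by the authors holds log2 values for probe sets; per the submitters' processing notes, oligo and RMA produced them, a method that corrects background, normalises by quantiles and summarises probes, so a shift common to most genes would not be seen. For tool versions, annotation release and build (not given in the sources used here) nothing is assumed, so coordinates are omitted. Of 22203 probe sets 19572 had 1 gene symbol in the platform annotation, none had several and 2631 were unnamed and left out; for the 55 of 19505 genes with more than 1 probe set the brightest by mean was kept.

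The group difference was estimated by limma 3.58.1 under R 4.3.3 (lmFit and eBayes, without covariates, two-sided) and adjusted by Benjamini-Hochberg over all 19505 genes, with 0.05 as the threshold; intervals are 95%. Subset values come from a model of 4 groups with the spread pooled over 10 arrays. Members, partner lists, marker lists and alternatives were chosen with earlier results of these data known. Members above the background limit are given with values; of each partner list, the genes that passed, up to 5 by smallest p, and the 2 next in p are named. The partner genes Ptk2, Plec, Col7a1 and Spp1 were not analysed here. On simulated arrays with these genes' means and moderated spreads, 11 of 175 calls were false. Correlations between arrays were 0.983 to 0.994 within groups and 0.973 to 0.991 between them. Plots used matplotlib 3.10.9 under Python 3.11.15. Alternatives were quantile normalisation, median centring, leaving out the dimmest 25% or 50% of genes, array weights, robust priors with an intensity trend, blocks for the replicate number or the subset, fits within each subset, the mean over probe sets, other background limits and leaving out each array.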

Additional observations from a re-analysis of the deposited data

Results flagged for a closer look

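Of 108 groups of 5 values tested over the members and the named partner genes, 2 held a value apart from the other 4 by Dixon's criterion, where chance gives about 1 in 20. Itga11 read 4.37 in pegtarazimod 5, and the next highest array of that group read 3.88; the gene lies near background. Bcam read 7.83 in pegtarazimod 2, where the next highest read 7.58, and this value still lay below every vehicle array.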

How the results depend on the processing

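No laminin gene passed in any of the 21 alternative fits, and Bcam, Tns3, Ccn1 and Tgfb1 passed in all of them. The count of integrin genes that passed, 0 over all arrays, was 1 with array weights (Itgb7), 1 with a block for the replicate number (Itgb6, adjusted p = 0.0340), 1 with the subset block (Itgb6) and 1 within replicates 1 and 2 (Itga6), and 0 to 1 without 1 array. The labels do not state a pairing, and the main fit did not pair the samples by replicate number. Deviations of same-numbered arrays did correlate, by 0.0993 to 0.310, and 8 of the 10 arrays correlated best with their own number. These correlations give no ground for ignoring the numbers, and the count of 0 integrin genes depends on that choice. With the replicate block 1606 genes passed in all, with the subset block 1820 and without a block 954.

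The adhesion machinery count was 3, and 5 without the dimmest 50% of genes, with the replicate block, with the subset block and within replicates 1 and 2. It was 4 with quantile normalisation, without the dimmest 25%, with an intensity trend and with array weights, and 1 to 4 without 1 array. The hemidesmosome and partner count was 0, and 2 without the dimmest 50%, with an intensity trend and with the replicate block (there Cd44 and Cd9), 3 with the subset block, 1 within replicates 1 and 2, and 0 to 1 without 1 array. The basement membrane count was 1, and 0 with median centring or array weights, 2 without the dimmest 50%, with either block and within replicates 1 and 2, and 0 to 1 without 1 array. Within replicates 1 and 2 these were Npnt, lower, and Fbln1, higher (0.56, limma adjusted p = 0.0496). Within replicates 3 to 5 Npnt alone passed, and Fbln1 differed by -0.24. The integrin ligand count was 5, and 3 within replicates 1 and 2. It was 4 with an intensity trend, where Thbs1 was lost, and 4 within replicates 3 to 5, where Icam1 was lost. Members near background numbered 11, and 17, 7 or 21 by the 99th percentile, lower quartile or median limits.

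Of 891 differences of single genes under alternatives, 33 changed sign, none of them of a gene that passed. Within replicates 1 and 2 they were Itga2b (-0.143), Itga4 (0.0624), Itga7 (-0.0469), Itga8 (-0.00568), Itgb4 (0.0570) and Lamc3 (-0.104). Within replicates 3 to 5 they were Itga2 (0.0867) and Lama4 (-0.0216). With array weights Itga2b (-0.0161) and Itga8 (-0.0147) changed sign, and with median centring Itgb4 (0.00619). Without 1 array Itga2b ranged from -0.0753 to 0.0478, Itga4 from -0.130 to 0.0248, Itga8 from -0.0854 to 0.139, Itgb4 from -0.129 to 0.0713, Itgb5 from -0.0636 to 0.194, Lama4 from -0.0115 to 0.0523 and Lamc3 from -0.0250 to 0.148. The causes were not tested.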
